A study of Mus musculus with 16 samples.

Results

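The 35 genes described here encode enzymes, carriers and regulators of fatty acid oxidation in mitochondria and peroxisomes, together with a few known targets of the receptor PPAR-alpha. They were chosen by name, and all 35 were found among the 21965 genes of the table, with 1 row each. All 35 were among the 13811 genes that passed the filter on low counts and were tested. RNA from a gut segment labelled as terminal ileum was sequenced in 16 male C57BL/6 mice, 1 library per mouse. The mice were WT or heterozygous for fat-1 (labelled Fat1+/-), a transgene for a C. elegans desaturase that is expressed in all tissues and turns n6 into n3 polyunsaturated fatty acids. They were 8 to 10 weeks old at the start and received a Lieber-DeCarli liquid diet for 6 weeks, either with ethanol (EtOH), raised in steps to 6% for the last 3 weeks, or pair-fed (PF) an isocaloric diet in which maltose dextrin took the place of EtOH. The PF diet was fed to 4 WT and 4 fat-1 mice, and EtOH to 3 WT and 5 fat-1 mice. The fat-1 transgene itself was not analysed here, so that the genotype labels were not checked against it.

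In mitochondria, long-chain fatty acids are activated to acyl-CoA, carried inward as carnitine esters by CPT1, the carrier CACT and CPT2, and then shortened in repeated rounds of dehydrogenation, hydration, a second dehydrogenation and thiolysis. Electrons from the first step pass through the electron transfer flavoprotein, and unsaturated chains need auxiliary isomerases and reductases. Peroxisomes shorten very long and branched chains with a parallel set of enzymes, and many genes of both routes are induced by PPAR-alpha when fatty acids are plentiful. In the small intestine the enterocytes that absorb dietary fat carry both routes.

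The libraries held 8422645 to 11438539 counted reads, and values of single mice are given as CPM, that is counts scaled to library size, after TMM scaling, in which 3 counts correspond to 0.246 to 0.421 CPM. Some libraries stood apart. In a principal component analysis of all genes tested, fat-1 EtOH replicates 3 and 4 lay at 105 and 104 on the first component, and the other EtOH-fed mice between 7.64 and 23.6. The summed level of 15 genes of the large intestine was 13090 and 14600 CPM in these 2 mice, 6218 CPM in WT EtOH replicate 2 and between 487.6 and 1530 CPM in the other 13 mice. The sum of 19 genes of the proximal small intestine was highest in fat-1 PF replicates 4 and 2 (72510 and 74990 CPM), between 9524 and 29110 CPM in the other PF mice, and between 917 and 7114 CPM in all EtOH-fed mice. Gata4 and Gip of this list were at 0 in fat-1 EtOH replicate 3, and Gip and Onecut2 in replicate 4. Fabp6, a defining bile acid binding protein of the ileum, was near absent from fat-1 PF replicates 2 and 4 (26.1 and 3.31 CPM, against 118 to 4910 CPM in the other mice). All 10 smooth muscle genes were higher in fat-1 EtOH than in fat-1 PF mice, and their sum was 2490 to 4844 CPM with EtOH and 1411 to 1880 CPM with PF there, and 2727 to 3438 CPM against 1573 to 2069 CPM in WT mice, while the sum of 9 epithelial genes was 10810, 10850 and 12600 CPM in fat-1 EtOH replicates 3, 4 and 5, below the 14180 to 19710 CPM of all other mice. In fat-1 EtOH replicate 5 the sums of B-cell follicle and adipocyte genes were 668.6 and 1541 CPM, against at most 132.9 and 989 CPM in the other mice, and replicates 3 and 4 had 8.20 and 2.68 CPM of the B-cell genes. The summed level of 7 genes of ileal bile acid handling was 919.8 CPM for fat-1 EtOH replicate 3 and 1877 CPM for replicate 4. Among fat-1 PF mice, replicate 2 had 581.9 CPM and replicate 4 had 533.4 CPM. The other mice had 2518 to 8168 CPM, with WT EtOH replicate 2 at 6950 CPM. All lists were chosen with earlier results known. Gata4, Gip, Onecut2 and Fabp1 of the proximal list are among the genes that the paper reports as changed between groups. The sums are thus not independent of the group differences and cannot decide the segment. Whether a sample came from another stretch of gut was not tested. The part of these differences in the results below was not tested either, and in bulk tissue fewer cells of a type and less RNA per cell cannot be told apart. Libraries were numbered by diet, so that library order and diet cannot be told apart either.

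Scaled to exon length as RPKM (CPM per kilobase of exon), the oxidation genes spanned a wide range of levels. In WT PF mice Hadh was the highest at 131.1 ± 26.1 RPKM (SD, n = 4), followed by Etfa at 96.5 ± 14.2 RPKM and Ech1 at 92.5 ± 13.1 RPKM. Hadh and Etfa overlapped within their SD, as did Etfa and Ech1, and the levels were not tested against each other. At the other end were Acot2 with 0.758 ± 0.120 RPKM, Bbox1 with 0.531 ± 0.732 RPKM and Acot1 with 0.348 ± 0.0650 RPKM. In fat-1 EtOH mice the order had Ech1 (106.1 ± 41.6 RPKM, n = 5), Acaa2 (104.7 ± 51.4 RPKM) and Acads (88.95 ± 48.9 RPKM) at the top, with SDs so wide that their order is not resolved.

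With EtOH, 14 of the 35 genes passed the test in fat-1 mice, 13 lower and 1 higher, where 37.4% of all genes tested passed, 18.8% lower and 18.7% higher. The 13 genes were Crat, Bbox1, Etfa, Hadh, Decr1, Eci1, Hsd17b4, Acaa1a, Crot, Pex11a, Pipox, Acot8 and Acot12, and the 1 that rose was Cpt1a. The share called was near that of all genes, and of the calls 13 of 14 were lower here and 2592 of 5170 among all genes. With upper-quartile scaling, which raised the median change of all genes from 0.054 to 0.203 on the log2 scale, 9 of the 35 genes were lower and 2 higher, and 3906 of 5659 calls among all genes were higher. The median log2 fold change with all mice and TMM scaling was -0.386 over the 35 genes and 0.054 over all genes. Over the 35 genes it was -0.243 without fat-1 PF replicate 2, -0.691 without fat-1 EtOH replicates 3 and 4 and -0.136 without fat-1 PF replicates 2 and 4. The medians of all genes there were 0.062, 0.071 and 0.064. In WT mice only Acot12 passed (lower), against 0.0796% of all genes in either direction and 0.0724% lower, and the medians were -0.214 and 0.012. When each mouse was left out, the WT median of the 35 genes ran from -0.357, without WT EtOH replicate 2, to -0.146. The WT comparison rested on 3 EtOH-fed mice and depended on the test. In it 6 of the 35 genes and 14.1% of all genes reached an unadjusted p under 0.05 with edgeR, DESeq2 called 1 gene, and limma with voom and sample weights called 11, namely Crot, Acot8, Pipox, Acot12, Eci1, Hsd17b4, Hadh, Decr1, Etfa and Acaa1a lower and Cpt1a higher (2800 of all genes). The 6 at an unadjusted p under 0.05 became 4 to 10 when each mouse was left out, against 8.38% to 15.5% of all genes. Every WT EtOH mouse lay below every WT PF mouse for 5 genes, Hadh, Eci1, Crot, Pipox and Acot12 (12.1% of all genes), and the same held in fat-1 mice for 9 genes, Crat, Bbox1, Etfa, Hadh, Decr1, Acaa1a, Crot, Pipox and Acot12 (13.4% of all genes). The share was 14.3% of members in WT mice, near that of all genes, and 25.7% in fat-1 mice.

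**Figure D1:**
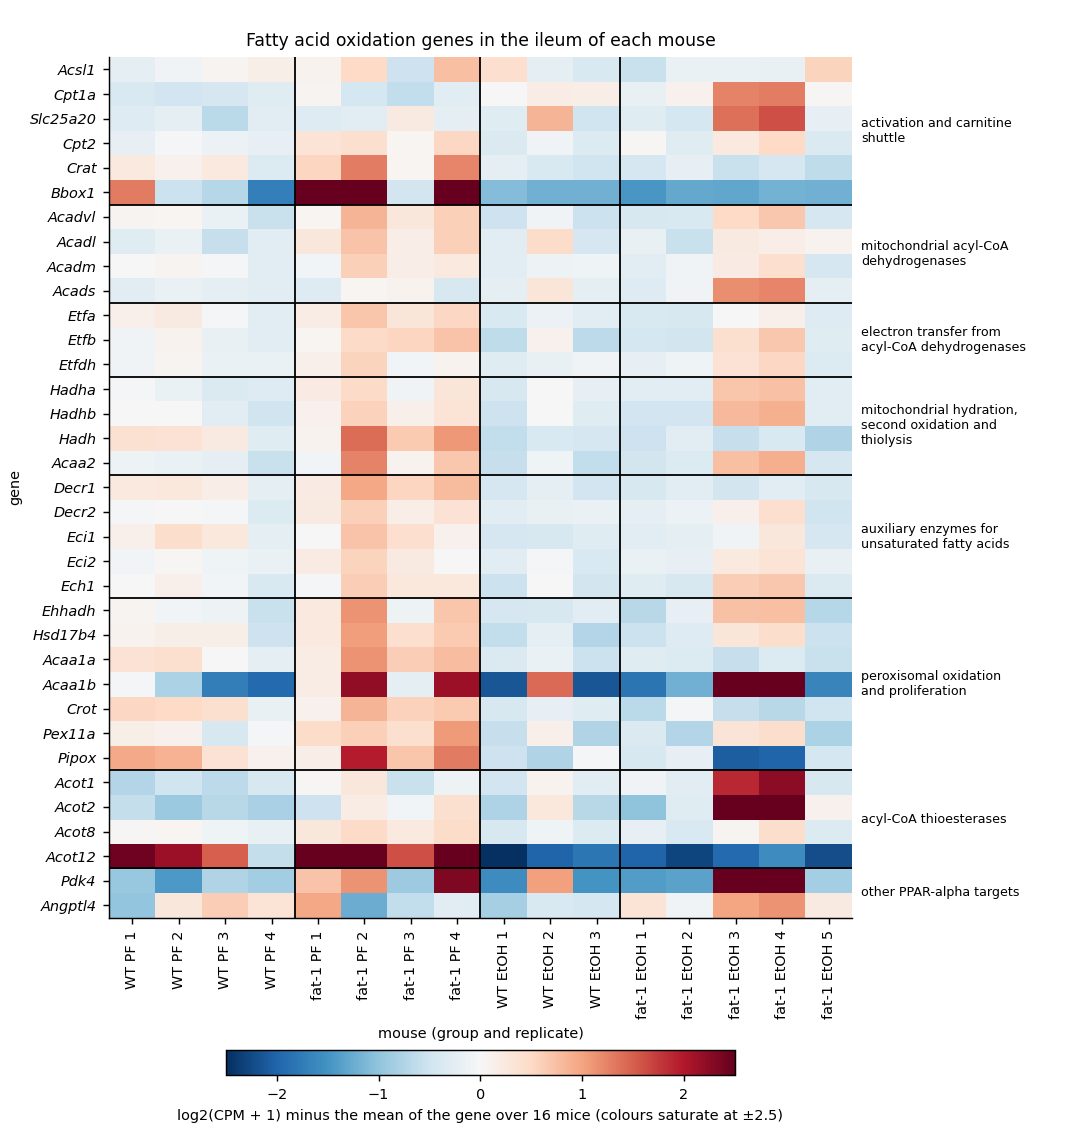
Heat map of the 35 genes (rows, grouped by role) in 16 mice (columns, grouped by genotype and diet). Colours show log2(CPM + 1) minus the mean of the gene over all mice. Hadh, Decr1, Acaa1a, Crot, Pipox and Acot12 were blue in nearly all EtOH-fed mice, while 27 of the 35 genes had their highest levels within the fat-1 EtOH group in replicates 3 and 4.

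The sequences before the starts of the genes were read from RefSeq for 30 of the 35 genes (build GRCm38.p6) and searched on both strands, over 250 bases, for the letters AGGTCANAGGTCA, the direct repeat that PPAR-alpha and RXR bind. With all 12 fixed letters it was found in 0 of the 30 genes and in 0.0407% of 27025 genes. With up to 2 mismatches it was found in 2 of the 30, or 6.67%, and in 3.72% of all genes. These 2 genes were Acot12, with 11 of the 12 letters, and Etfa, with 10. A match is a description of letters and not of a binding site. Acot12 is shown as the gene that passed in both genotypes and Etfa as the other match, each in the direction of its transcription up to the annotated gene, with the matched letters in capitals. Both matches are on the opposite strand, where they read AGGTGAGAGGTCA in Acot12 and AGGGCAAAGGTAA in Etfa. The stretch between the annotated ends of Hadha and Hadhb is shown on the strand of Hadhb because it lies between the starts of these genes, whose counts kept nearly the same ratio. It has no match.
Acot12 (GRCm38.p6, chr13:91741271-91741511, plus strand): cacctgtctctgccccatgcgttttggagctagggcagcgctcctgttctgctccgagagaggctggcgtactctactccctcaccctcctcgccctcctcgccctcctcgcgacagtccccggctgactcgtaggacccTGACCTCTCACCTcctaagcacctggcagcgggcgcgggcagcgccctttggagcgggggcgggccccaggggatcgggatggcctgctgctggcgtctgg
Etfa (GRCm38.p6, chr9:55512244-55512493, minus strand): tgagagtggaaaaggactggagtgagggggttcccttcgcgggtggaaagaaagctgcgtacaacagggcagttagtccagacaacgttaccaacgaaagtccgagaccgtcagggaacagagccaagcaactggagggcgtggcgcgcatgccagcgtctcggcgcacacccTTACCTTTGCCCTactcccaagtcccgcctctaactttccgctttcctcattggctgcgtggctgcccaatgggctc
Hadha to Hadhb (GRCm38.p6, chr5:30155163-30155247, plus strand): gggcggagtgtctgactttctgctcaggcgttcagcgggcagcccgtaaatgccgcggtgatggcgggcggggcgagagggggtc

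Activation and the carnitine shuttle held 6 of the genes. In fat-1 mice 2 of them fell and 1 rose with EtOH (18.8% and 18.7% of all genes). Crat encodes carnitine acetyltransferase, which exchanges short acyl groups between CoA and carnitine (chromosome 2 from 30400471 to 30415813). Its level was 174, 290, 124 and 280 CPM in replicates 1 to 4 of the fat-1 PF mice and 88.5, 103, 80.6, 88.9 and 76.0 CPM in fat-1 EtOH replicates 1 to 5. The log2 fold change was -1.31 ± 0.21 (SE, adjusted p = 0.00056). In WT mice Crat was 141, 129, 142 and 94.1 CPM with PF and 101, 91.4 and 84.6 CPM with EtOH. Only WT PF replicate 4 overlapped the WT EtOH mice, and the difference of -0.46 ± 0.24 did not pass (adjusted p = 0.404).

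Bbox1 encodes gamma-butyrobetaine hydroxylase, the last enzyme of carnitine synthesis (chromosome 2 from 110262697 to 110314560). It was 22.7, 60.9, 1.37 and 99.9 CPM in fat-1 PF mice and between 0.19 and 0.446 CPM, or 2 to 5 counts, in fat-1 EtOH mice. Its log2 fold change of -7.00 ± 1.12 (adjusted p = 0.000603) therefore compared a group that varied widely with a group near the limit of counting, and voom did not call it. In WT mice it was 7.1, 1.24, 1.0 and 0.0 CPM with PF and 0.537, 0.42 and 0.42 CPM with EtOH, levels that overlapped.

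Cpt1a encodes the liver-type carnitine palmitoyltransferase of the outer mitochondrial membrane, the controlled entry step (chromosome 19 from 3322334 to 3385733). Levels were 183, 128, 114 and 145 CPM in fat-1 PF mice and 153, 187, 411, 426 and 178 CPM in fat-1 EtOH mice, so that replicates 3 and 4 were far above the others. The log2 fold change was 0.93 ± 0.28 (adjusted p = 0.0191), and without these 2 mice it was 0.30 ± 0.14 and did not pass (adjusted p = 0.115). The call was also lost without fat-1 PF replicate 2 or fat-1 PF replicate 3, with voom and in a fit of only the groups compared. In WT mice Cpt1a was 134, 125, 130 and 142 CPM with PF and 174, 198 and 196 CPM with EtOH, without overlap, yet the difference of 0.52 ± 0.31 did not pass (adjusted p = 0.464). Slc25a20, the carnitine-acylcarnitine carrier, showed the same 2 mice at the top (chosen after its values were seen), with 282 and 331 CPM against 79.1 to 93.6 CPM in the other 3 fat-1 EtOH mice, and its change did not pass (0.84 ± 0.43, adjusted p = 0.138). About 3.67% of its transcript windows of 75 bases recur in other annotated genes. Cpt2, which returns acyl groups to CoA inside the mitochondrion, and Acsl1, an acyl-CoA synthetase, had log2 fold changes of -0.27 ± 0.16 and -0.34 ± 0.26.

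None of the 4 mitochondrial acyl-CoA dehydrogenases passed the edgeR test in either genotype. Only 1 of them, Acadl in fat-1 mice, had an unadjusted p under 0.05, against 47.9% of all genes in fat-1 mice. DESeq2 called Acadl lower in fat-1 mice, and voom called Acadl and Acadvl, where they called 5556 and 3649 of all genes. Acadvl, Acadl, Acadm and Acads act on very long, long, medium and short chains, and their log2 fold changes in fat-1 mice were -0.40 ± 0.25, -0.49 ± 0.20, -0.25 ± 0.17 and 0.65 ± 0.31. Acads stood out by its mice (chosen after its values were seen). It was 315 and 331 CPM in fat-1 EtOH replicates 3 and 4, 175 CPM in WT EtOH replicate 2 and between 106 and 151 CPM in the other 13 mice. Acadvl overlaps Dvl2 on the opposite strand over 1151 bases of exon, and the strand setting of the counting is not given in the sources used here.

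Among the genes of electron transfer, Etfa fell in fat-1 mice, and Etfb and Etfdh did not pass. Etfa and Etfb encode the alpha and beta subunits of the electron transfer flavoprotein, and Etfdh its dehydrogenase in the inner membrane. Etfa, whose upstream sequence is among those shown (chromosome 9 from 55454508 to 55512243) was 198, 283, 216 and 250 CPM in fat-1 PF mice and 134, 132, 175, 189 and 138 CPM in fat-1 EtOH mice, without overlap, with a log2 fold change of -0.62 ± 0.14 (adjusted p = 0.00431). In WT mice it was 190, 203, 171 and 144 CPM with PF and 133, 156 and 144 CPM with EtOH, a change of -0.30 ± 0.16 that did not pass (adjusted p = 0.424). Etfb and Etfdh had log2 fold changes of -0.42 ± 0.25 and -0.11 ± 0.17 in fat-1 mice. Etfb counts are uncertain, because 39.6% of its transcript windows recur in the readthrough gene Gm45233.

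The next steps of the mitochondrial round held Hadh, which had the highest mean RPKM of the 35 genes in both PF groups and, with EtOH, ranked 2 in WT and 7 in fat-1 mice. Hadh, the hydroxyacyl-CoA dehydrogenase of medium and short chains (chromosome 3 from 131233419 to 131272101), was 604, 1510, 902 and 1210 CPM in fat-1 PF mice. In fat-1 EtOH mice it was 396, 470, 383, 435 and 338 CPM. All EtOH-fed mice lay below all PF mice, the spread was narrow among the EtOH-fed and wide among the PF mice, and the log2 fold change was -1.39 ± 0.22 (adjusted p = 0.000528). In WT mice it was 746, 733, 668 and 464 CPM with PF and 372, 440 and 428 CPM with EtOH. The WT groups did not overlap either, but the change of -0.66 ± 0.25 did not pass (adjusted p = 0.272).

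Hadha and Hadhb encode the alpha and beta subunits of the mitochondrial trifunctional protein, and Acaa2 a thiolase. None of them passed in fat-1 mice, with log2 fold changes of -0.04 ± 0.22, -0.08 ± 0.28 and -0.36 ± 0.33. Hadha (chosen after its values were seen) was 353, 426, 288 and 378 CPM with PF and 251, 251, 494, 507 and 254 CPM with EtOH. The fat-1 EtOH mice thus lay on both sides of the PF mice, with replicates 1, 2 and 5 below and replicates 3 and 4 above all of them. The ratio of Hadha to Hadhb counts stayed between 2.76 and 3.7 in all 16 mice. These genes are neighbours on chromosome 5, transcribed away from each other, with RefSeq starts 272 bases apart. Of the windows of Hadhb, 16.7% recur in other genes, mainly pseudogenes.

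The auxiliary enzymes for unsaturated chains fell in 2 of 5 cases in fat-1 mice, where 18.8% of all genes were lower. Decr1, the mitochondrial 2,4-dienoyl-CoA reductase (chromosome 4 from 15917240 to 15945507), was 161, 272, 203 and 243 CPM in fat-1 PF mice and 105, 114, 101, 114 and 105 CPM in fat-1 EtOH mice. It fell by 1.02 ± 0.14 on the log2 scale (adjusted p = 0.000292). The WT mice had 166, 167, 156 and 118 CPM with PF and 103, 119 and 99.6 CPM with EtOH, a change of -0.50 ± 0.16 that did not pass (adjusted p = 0.208). The 8 EtOH-fed mice of both genotypes thus had nearly equal levels of Decr1, from 99.6 to 119 CPM.

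Eci1, a mitochondrial enoyl-CoA isomerase (chromosome 17 from 24426641 to 24439348), was 54.6, 91.1, 73.5 and 59.6 CPM in fat-1 PF mice and 45.5, 45.9, 51.6, 67.2 and 40.9 CPM in fat-1 EtOH mice. Here only replicate 4 of the EtOH-fed mice reached into the range of the PF mice, and the log2 fold change was -0.47 ± 0.17 (adjusted p = 0.0433). This call held in 5 of 16 leave-one-out fits, those without WT PF replicate 2 or 4, fat-1 PF replicate 1 or 4, or fat-1 EtOH replicate 4. It was also lost with upper-quartile scaling, with only the groups compared, with the replicate block and with a filter on a mean of at least 50 counts. Decr2, the peroxisomal dienoyl-CoA reductase, Eci2, a further isomerase, and Ech1, a dienoyl-CoA isomerase, had log2 fold changes of -0.39 ± 0.15, -0.24 ± 0.14 and -0.17 ± 0.24. In WT mice all 5 auxiliary genes were lower with EtOH by 0.11 to 0.55 on the log2 scale, none past the test.

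Of the 7 peroxisomal genes 5 were lower in fat-1 mice (18.8% of all genes). All 7 were lower without fat-1 EtOH replicates 3 and 4 (16% of all genes), 2 without fat-1 PF replicates 2 and 4 (7.95%) and 3 without these 4 mice (7.7%). Pipox, which oxidises pipecolic acid and sarcosine (chromosome 11 from 77880615 to 77894096), was 21.8, 78.3, 31.8 and 49.2 CPM in fat-1 PF mice. It was 14.3, 16.6, 3.85, 4.1 and 13.9 CPM in fat-1 EtOH mice, with a log2 fold change of -2.10 ± 0.45 (adjusted p = 0.00326). It was the only 1 of the 35 genes for which fat-1 EtOH replicates 3 and 4 were both lowest in their group. In WT mice it was 37.9, 36.3, 25.1 and 20.8 CPM with PF and 13.1, 11.1 and 19.0 CPM with EtOH, without overlap but not past the test (-1.06 ± 0.52, adjusted p = 0.375).

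Acaa1a encodes a peroxisomal thiolase (chromosome 9 from 119339676 to 119350299). Its level was 228, 440, 307 and 343 CPM in fat-1 PF mice and 162, 158, 134, 157 and 136 CPM in fat-1 EtOH mice, and it fell by 1.14 ± 0.17 on the log2 scale (adjusted p = 0.000438). In WT mice it was 258, 265, 201 and 169 CPM with PF and 156, 178 and 137 CPM with EtOH (-0.51 ± 0.20, adjusted p = 0.279). Acaa1b, the near copy of this thiolase on the same chromosome, had another pattern. It was 11.2, 48.9, 8.06 and 46.1 CPM in fat-1 PF mice, 150 and 161 CPM in fat-1 EtOH replicates 3 and 4 and 2.0, 3.66 and 2.4 CPM in the other 3 (chosen after its values were seen). WT EtOH replicate 2 was also apart from its group, at 27.6 CPM against 1.43 and 1.43 CPM. The ratio of Acaa1a to Acaa1b counts ran from 0.893 to 109 over the 16 mice. Because 24.4% of the windows of Acaa1b and 9.50% of those of Acaa1a are shared, the split of reads between the copies is uncertain.

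Crot, the carnitine octanoyltransferase that exports shortened chains, fell by 1.06 ± 0.17 on the log2 scale (adjusted p = 0.000644), from 159 to 264 CPM with PF to 89.9 to 141 CPM with EtOH. Hsd17b4, the D-bifunctional protein, and Pex11a, which divides peroxisomes, fell by 0.69 ± 0.24 and 0.80 ± 0.27 (adjusted p = 0.0335 and 0.0336), with overlap between the groups, and each of these calls held in 11 of 16 fits that left out 1 mouse. They were lost without fat-1 PF replicate 2 or 4 and without fat-1 EtOH replicate 1, 2 or 5. Both were also lost with upper-quartile scaling, in a fit of only the groups compared and with the replicate number as a block. Ehhadh, the L-bifunctional protein and a classical PPAR-alpha target, did not pass (-0.44 ± 0.32, adjusted p = 0.294). It was 157 and 160 CPM in fat-1 EtOH replicates 3 and 4 and 57.2 to 81.9 CPM in the other 3.

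Of the acyl-CoA thioesterases, which release free fatty acids from CoA, Acot12 showed the only change that passed in both genotypes. Acot12 hydrolyses acetyl-CoA in the cytosol and lies on chromosome 13 from 91741512 to 91786148. It was 47.3, 77.5, 24.1 and 111 CPM in fat-1 PF mice and 1.05, 0.68, 1.15, 1.78 and 0.77 CPM in fat-1 EtOH mice, with a log2 fold change of -5.89 ± 0.66 (adjusted p = 0.000214). In WT mice it was 43.6, 35.5, 22.1 and 4.47 CPM with PF and 0.179, 1.05 and 1.34 CPM with EtOH (-4.92 ± 0.83, adjusted p = 0.0457). Every EtOH-fed mouse thus lay below every PF mouse in both genotypes, and the EtOH-fed libraries held 2 to 20 counts each. The WT call was close to the limit. It was kept without WT PF replicate 4, fat-1 PF replicate 3 or fat-1 EtOH replicate 4 and lost in 13 of 16 fits that left out 1 mouse, in which the log2 fold change ran from -5.46 to -4.44 and the adjusted p from 0.00257 to 0.421.

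Acot8, a peroxisomal thioesterase (chromosome 2 from 164792765 to 164804882), was 45.9, 52.5, 44.1 and 51.9 CPM in fat-1 PF mice and 32.4, 28.5, 39.1, 50.6 and 29.3 CPM in fat-1 EtOH mice. Only replicate 4 of the EtOH-fed mice reached the range of the PF mice, and the log2 fold change was -0.43 ± 0.15 (adjusted p = 0.0318). The call was lost without the same mice as those of Hsd17b4 and Pex11a. It was also lost with upper-quartile scaling, with only the groups compared, with the replicate block and with a filter on a mean of at least 50 counts. Acot8 overlaps Snx21 on the opposite strand over 246 bases of exon. Acot1 and Acot2, the cytosolic and mitochondrial long-chain thioesterases, were chosen after their values were seen. Acot1 was 11.8 and 15.4 CPM and Acot2 29.5 and 27 CPM in fat-1 EtOH replicates 3 and 4, while in the other 14 mice neither gene was above 4.91 CPM. Their log2 fold changes of 1.49 ± 0.63 and 1.84 ± 0.78 did not pass (adjusted p = 0.0728 and 0.0761), whereas DESeq2, which called 17 of the 35 genes and 5556 of all genes here, called both higher, and upper-quartile scaling Acot1. Both were also called without fat-1 EtOH replicate 1 or 2, and Acot1 without replicate 5. Shared windows make up 15.0% of Acot1 and 21.2% of Acot2.

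Pdk4 and Angptl4 are PPAR-alpha targets outside the pathway itself, the first a kinase that shuts down pyruvate dehydrogenase and the second an inhibitor of lipoprotein lipase. Neither passed with edgeR in any of the 5 comparisons with all mice. Pdk4 (chosen after its values were seen) was 191 and 123 CPM in fat-1 EtOH replicates 3 and 4, 33.5 CPM in WT EtOH replicate 2 and 4.66 to 8.38 CPM in the other 5 EtOH-fed mice. It was also uneven among fat-1 PF mice, at 26.5, 35.9, 8.06 and 84.3 CPM. Angptl4 was 16.7 to 52.5 CPM in WT PF, 13.8 to 67.3 CPM in fat-1 PF, 18.9 to 25.9 CPM in WT EtOH and 32.0 to 75.2 CPM in fat-1 EtOH mice.

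**Figure D2:**
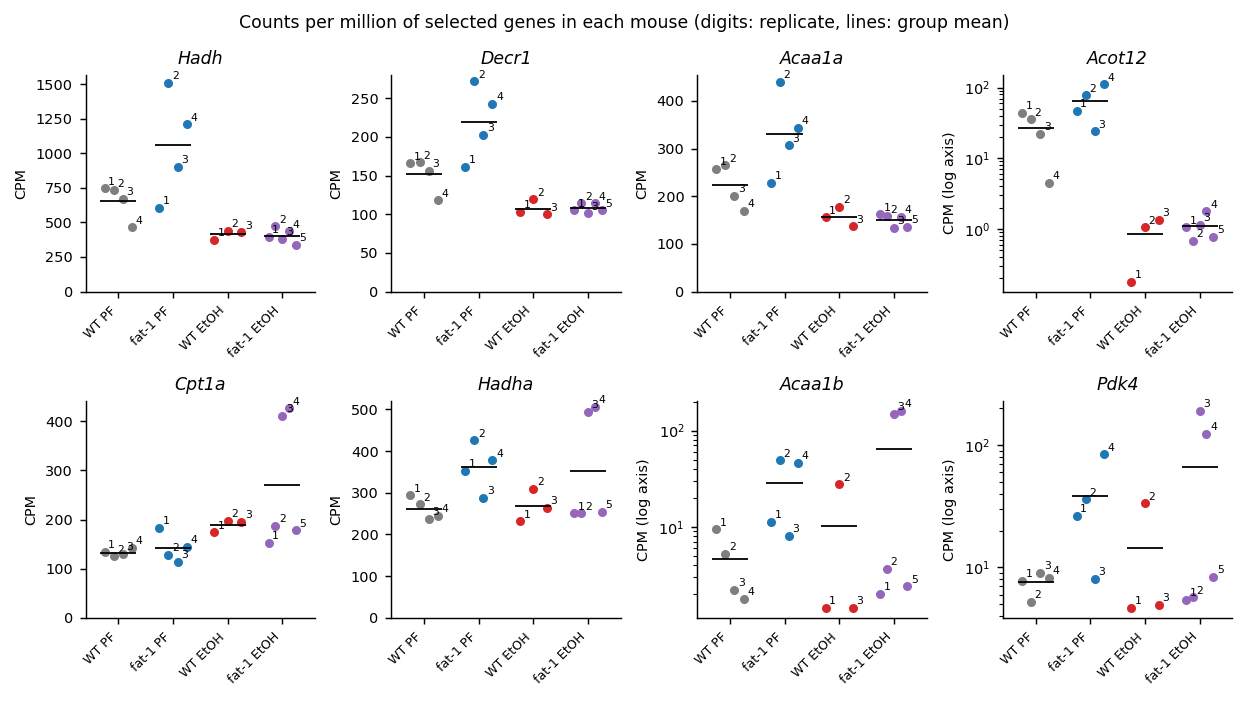
CPM of 8 genes in each mouse (points, with the replicate number beside them) by group, with lines at the group means and a log axis for Acot12, Acaa1b and Pdk4. Hadh, Decr1, Acaa1a and Acot12 were low in all EtOH-fed mice, whereas fat-1 EtOH replicates 3 and 4 were the highest mice of their group for Cpt1a, Hadha, Acaa1b and Pdk4.

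**Figure D3:**
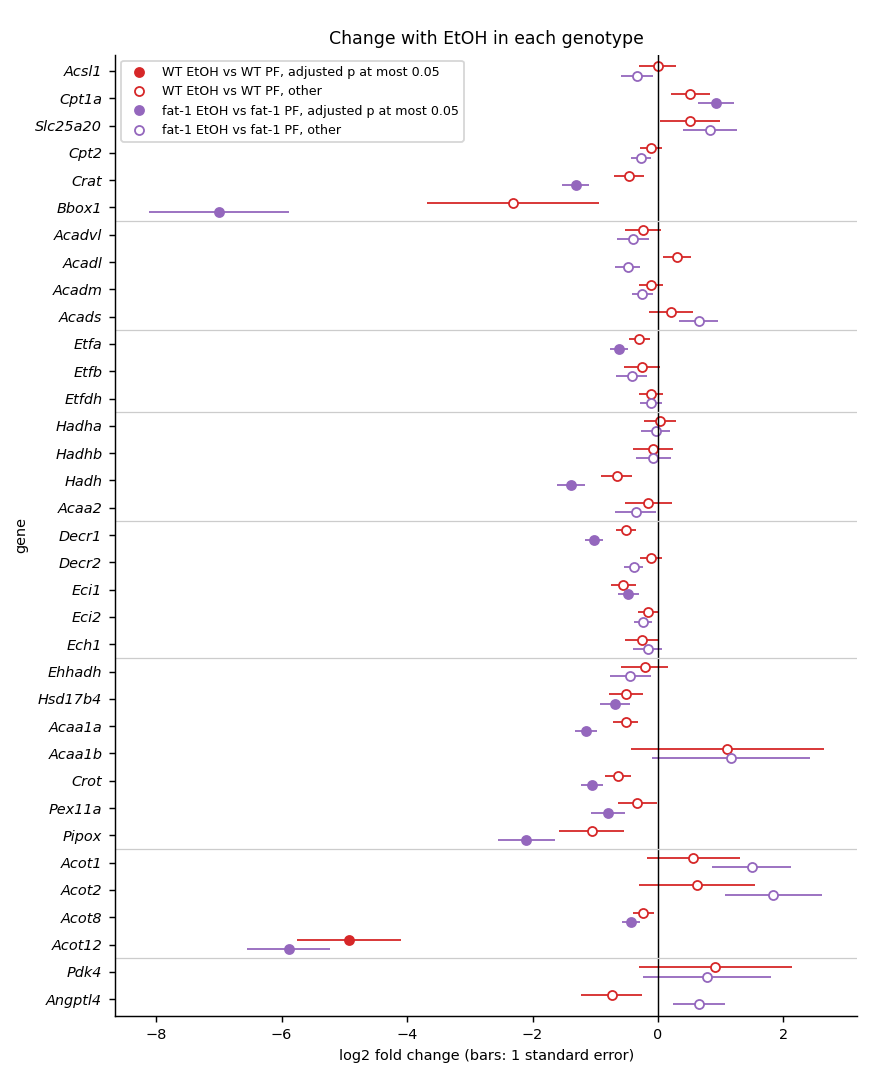
Log2 fold change with EtOH (x axis, bars 1 standard error) of each gene in WT mice and in fat-1 mice, with filled points at an adjusted p of at most 0.05. Filled points are 1 gene in WT mice, Acot12, and 14 genes in fat-1 mice, of which Cpt1a is on the right of 0.

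Mice of the same group differed in which were highest. In the fat-1 EtOH group replicates 3 and 4 were both the highest of the 5 mice for 27 of the 35 genes, against 28.3% of all genes, and both the lowest for 1, Pipox, against 29.3%. In the fat-1 PF group replicates 2 and 4 were both the highest for 25 of the 35 genes, against 27.2% of all genes. The first pair are also the mice with the highest large intestine sums and the second those with the highest proximal small intestine sums, and the part of this in the values was not tested. The WT groups were uneven as well. WT EtOH replicate 2 was the highest of its group for 25 of the 35 genes, against 37.0% of all genes. WT PF replicate 4 was the lowest of its group for 23, against 32.0%. Without fat-1 EtOH replicates 3 and 4, 28 of the 35 genes were lower with EtOH and 0 higher, where 16% of all genes tested were lower. The 15 genes gained included both subunits of the trifunctional protein and the electron transfer genes Etfb and Etfdh, with Hadha at -0.49 ± 0.13, Hadhb at -0.69 ± 0.15, Etfb at -0.85 ± 0.19 and Etfdh at -0.38 ± 0.13. Ehhadh fell by 1.05 ± 0.25 and Acadvl by 0.86 ± 0.19 in that fit. The genes not called there were Acsl1, Cpt1a, Slc25a20, Acads, Acot1, Acot2 and Angptl4.

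The log2 fold changes of 6 genes had the other sign in that fit, those of Slc25a20, Acads, Acaa1b, Acot1, Acot2 and Pdk4. Of these Acaa1b and Pdk4 passed. With all mice the log2 fold changes of these 2 were 1.16 ± 1.26 and 0.79 ± 1.02 (adjusted p = 0.484 and 0.562), and without replicates 3 and 4 they were -3.36 ± 1.11 and -2.54 ± 0.80 (adjusted p = 0.0389 and 0.0325). Leaving out the fat-1 PF replicates 2 and 4 worked the other way. Then 7 genes were lower, Crat, Bbox1, Hadh, Decr1, Acaa1a, Crot and Acot12, against 7.95% of all genes, and Cpt1a was no longer called. In that fit 7 genes that had not passed with all mice had the other sign, now above 0, namely Acsl1, Etfdh, Hadha, Hadhb, Acaa2, Ech1 and Ehhadh. Without these 4 mice of both groups, 12 genes were lower and 0 higher, against 7.7% of all genes lower. These were Crat, Bbox1, Etfa, Hadh, Decr1, Decr2, Eci2, Hsd17b4, Acaa1a, Pex11a, Acot8 and Acot12. Crat, Bbox1, Hadh, Decr1, Acaa1a and Acot12 were thus lower in each of these 4 fits. The sizes were smaller without the fat-1 PF mice, for example -0.89 ± 0.20 for Hadh and -0.75 ± 0.14 for Decr1.

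**Figure D4:**
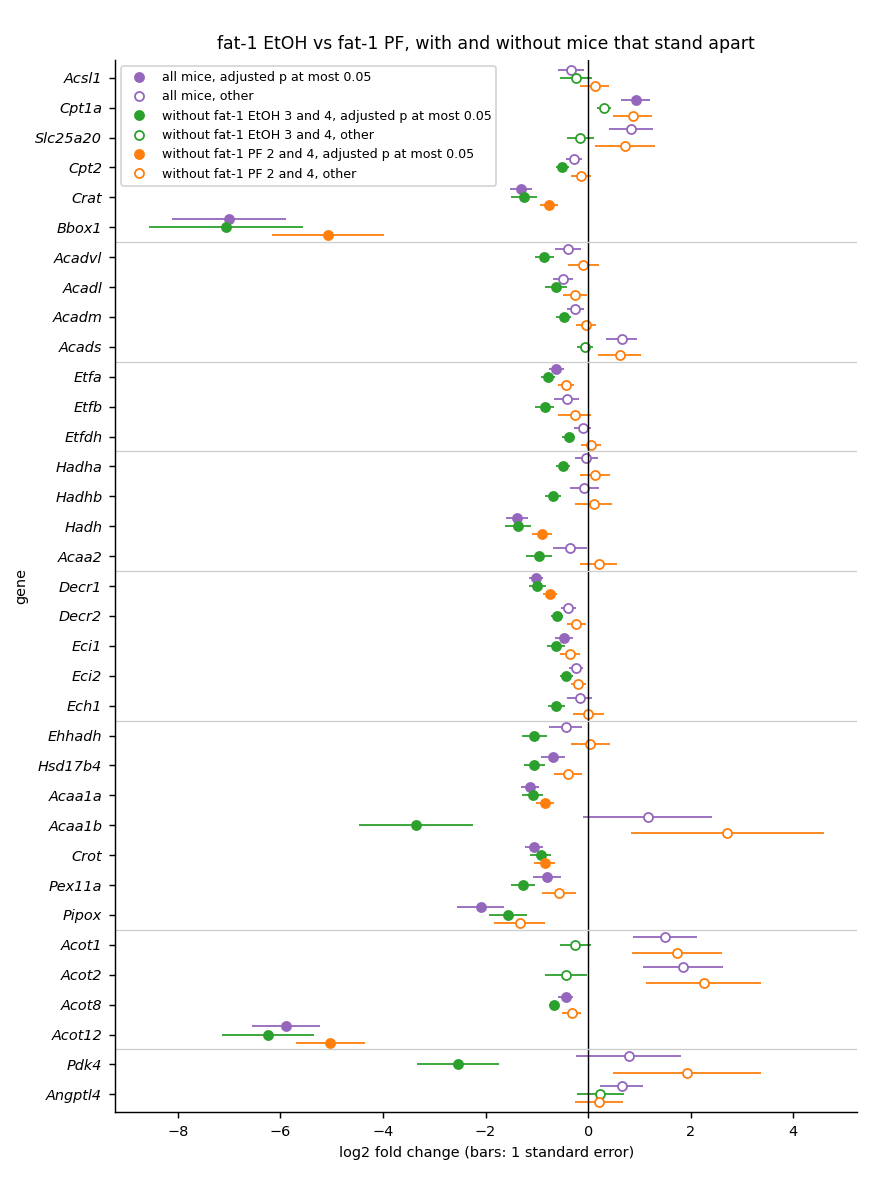
Log2 fold change between fat-1 EtOH and fat-1 PF mice (x axis, bars 1 standard error) of each gene with all mice, without fat-1 EtOH replicates 3 and 4, and without fat-1 PF replicates 2 and 4, with filled points at an adjusted p of at most 0.05. The count of filled points was 14, 28 and 7. Without the EtOH-fed mice 6 genes lay on the other side of 0 than with all mice, Acaa1b and Pdk4 with filled points, and without the PF mice 7 genes did, none filled.

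Between the genotypes with PF, 0 of the 35 genes passed with edgeR, and 0.0% of all genes did, while DESeq2 called 3 higher in fat-1 mice (Acadl, Crat and Decr1) and voom 0. Of the 35 log2 fold changes 34 were above 0, with a median of 0.533 against 0.016 over all genes, and 17 genes had an unadjusted p under 0.05, against 12.7% of all genes. The exception was Angptl4 (-0.24 ± 0.44). All fat-1 PF mice lay above all WT PF mice for 9 genes, Cpt2, Acadl, Hadhb, Acaa2, Decr2, Hsd17b4, Pex11a, Acot2 and Acot8, where 4.25% of all genes did so. Acadl, the clearest of these, was 138, 151, 113 and 142 CPM in WT PF and 206, 280, 191 and 257 CPM in fat-1 PF mice (0.78 ± 0.21, adjusted p = 0.187; chosen after its values were seen). Cpt2 was 114 to 129 CPM in WT PF and 136 to 189 CPM in fat-1 PF mice. Without fat-1 PF replicates 2 and 4, the median was 0.281, 33 of the 35 values were above 0, and 2 genes had an unadjusted p under 0.05, against 3.02% of all genes.

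Comparing the genotypes under EtOH, 0 of the 35 genes passed with edgeR, DESeq2 or voom, against 0.00724% of all genes with edgeR, and 3 had an unadjusted p under 0.05 (4.86% of all genes). The median log2 fold change was 0.319 with all mice and -0.057 without fat-1 EtOH replicates 3 and 4. Without WT EtOH replicate 2 as well it was 0.054. Its size thus rested on fat-1 EtOH replicates 3 and 4, and without them its sign also depended on WT EtOH replicate 2. Angptl4 was the only 1 of the 35 genes whose groups did not overlap (1.43% of all genes had every fat-1 EtOH mouse above every WT EtOH mouse), at 18.9 to 25.9 CPM in WT EtOH and 32.0 to 75.2 CPM in fat-1 EtOH mice (1.16 ± 0.47, adjusted p = 0.757). The interaction of genotype and EtOH, which tests whether the response differed between genotypes, passed for 0 of the 35 genes and 0.0% of all genes with edgeR and for 0 of the 35 with DESeq2 and voom, with 7 at an unadjusted p under 0.05 (8.26% of all genes). That 7 became 1 to 8 when each mouse was left out, against 4.82% to 12.2% of all genes in those fits. It was 1 without WT EtOH replicate 2 (5.41% of all genes) and 3 without fat-1 PF replicate 2 (5.67%) or WT PF replicate 4 (4.82%). It was 16 without fat-1 EtOH replicates 3 and 4 (8.71% of all genes), and 0 without fat-1 PF replicates 2 and 4 (3.73%). The smallest adjusted p of 0.595 was shared by the 7 genes, of which Crat (-0.86 ± 0.32), Hadh (-0.73 ± 0.33), Decr1 (-0.52 ± 0.21), Acaa1a (-0.63 ± 0.26), Acadl (-0.78 ± 0.30) and Bbox1 (-4.69 ± 2.00) had values below 0 and Angptl4 (1.40 ± 0.64) above 0. A difference in response between the genotypes was therefore not shown for any of them, although more genes passed in fat-1 mice.

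Other genes of the pathway were followed as 9 lists with 148 different genes tested. In WT mice 0 of them passed with edgeR (24 at an unadjusted p under 0.05, against 14.1% of all genes, 8 called by DESeq2 and 40 by voom, which called 257 and 2800 of all genes). Between the PF groups 0 passed as well (37 at an unadjusted p under 0.05, against 12.7% of all genes, 11 called by DESeq2, which called 189 of all genes, and 0 by voom). In fat-1 mice 46 were lower and 21 higher with EtOH, or 31.1% and 14.2%, against the 18.8% and 18.7% of all genes that each list below is also read against, with a median log2 fold change of -0.216. Without fat-1 PF replicates 2 and 4 the lists of ketone body metabolism and fatty acid synthesis had no call. Of 16 peroxins, which build peroxisomes and import their proteins, 9 were lower and 0 higher, led by Pex16 (-0.95 ± 0.15, adjusted p = 0.000623) and Pex5 (-0.83 ± 0.13, adjusted p = 0.000517). The same 9 were lower without fat-1 EtOH replicates 3 and 4, and 5 of them without fat-1 PF replicates 2 and 4, where 7.95% of all genes were lower. Of 31 other peroxisomal genes 12 were lower and 4 higher. Ephx2, a soluble epoxide hydrolase, and Dao, the D-amino acid oxidase, were the lowest (-3.53 ± 0.43 and -3.48 ± 0.81). Hao2, a hydroxyacid oxidase, and Far1, a fatty acyl-CoA reductase, were the highest (5.29 ± 1.35 and 2.78 ± 0.60), and Hao2 had 193 and 220 CPM in fat-1 EtOH replicates 3 and 4, 112 CPM in WT EtOH replicate 2 and at most 16.2 CPM elsewhere.

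Of 22 other genes of mitochondrial acyl-CoA oxidation, 5 were lower and 3 higher. Pccb and Pcca, the subunits of propionyl-CoA carboxylase, moved apart (-0.76 ± 0.14 and 0.71 ± 0.22), and Acad11 was lower (-0.73 ± 0.27) and Acadsb higher (0.62 ± 0.12). Of 7 other genes of carnitine handling, Aldh9a1 was lower (-1.07 ± 0.37) and the transporters Slc6a14 and Slc22a21 higher (6.72 ± 1.20 and 0.70 ± 0.16). Slc6a14 was 109 to 803 CPM in fat-1 EtOH and 0.702 to 10.9 CPM in fat-1 PF mice. Of 19 other acyl-CoA synthetases and thioesterases, 7 were lower and 5 higher. Acsm5 and Acsl5 had the most negative changes (-4.64 ± 0.70 and -2.57 ± 0.52), Acsm3 and Acss3 the most positive (2.25 ± 0.54 and 1.27 ± 0.46). Of 11 genes of fatty acid synthesis, the opposite route, Srebf1 was lower (-0.91 ± 0.21) and 4 were higher, with Acacb at 2.51 ± 0.75 and Acly at 1.16 ± 0.29. Acacb was 78.5 and 78 CPM in fat-1 EtOH replicates 3 and 4, 6.37 to 14.3 CPM in the other 3 and 4.35 to 8.84 CPM in fat-1 PF mice, and it was not called without these 2 mice.

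Among the genes of ketone body metabolism 3 were lower. Slc16a6 and Bdh2 had the most negative changes (-2.45 ± 0.48 and -1.31 ± 0.40). Of 27 other PPAR-alpha targets 10 were lower and 3 higher, with Fabp1 (-8.60 ± 1.01) and Ephx2 the lowest and Mgll (2.21 ± 0.58) among those higher. Fabp1, the liver-type fatty acid binding protein, is also on the list of the proximal small intestine, and 18 of the 19 genes of that list were lower.

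The receptors themselves did not pass in fat-1 mice. Ppara was 24.6, 28.6, 7.65 and 13.5 CPM in fat-1 PF and 15.9, 23.6, 37.2, 28.0 and 13.1 CPM in fat-1 EtOH mice (0.34 ± 0.35, adjusted p = 0.464). Ppard and Pparg had log2 fold changes of -0.25 ± 0.16 and 1.13 ± 0.66 (adjusted p = 0.227 and 0.188). Pparg was 70.0 and 59.4 CPM in fat-1 EtOH replicates 3 and 4 and 37.5 CPM in WT EtOH replicate 2, against 5.33 to 23.6 CPM in the other 13 mice. Of the 16 receptors, partners and coactivators tested, 4 were lower and 1 higher. Creb3l3, a transcription factor of fasting metabolism, had 56.0 to 125 CPM in fat-1 EtOH and 468 to 1180 CPM in fat-1 PF mice (-3.06 ± 0.33, adjusted p = 0.000202). Nr1h3 and Ppargc1a moved by -1.23 ± 0.27 and -0.90 ± 0.26 and Esrra was also lower, whereas Ppargc1b moved by 0.86 ± 0.32.

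Some members followed each other closely over the 16 mice. Spearman's rho was 0.974 for Decr1 and Acaa1a, 0.971 for Acadvl and Acaa2 and 0.962 for Acaa2 and Acaa1b, and it was lowest for Cpt1a and Pipox at -0.812. The mice share diet, genotype and region markers, so these values only describe the pattern.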

How the data were processed

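RNA-seq counts per gene were deposited by the authors for 16 mouse ileum libraries. According to the study's methods the authors aligned reads with tophat2 2.0.13, and used Ensembl build 82, and the deposited table is labelled as raw counts of htseq. The strand setting of the counting and the annotation behind the counts are not given in the sources used here. The values are raw counts per gene, not normalized. Genes without a count numbered 4158 of 21965. Groups came from the sample labels, and replicates are separate mice.

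From the counts, the quasi-likelihood test of edgeR 4.0.16 (R 4.3.3) was run with TMM scaling, filterByExpr, robust dispersion and 1 mean per group over all 16 mice, which share 1 estimate of the spread. P-values were adjusted by Benjamini-Hochberg over all 13811 genes tested, and a gene passed, or was called, at an adjusted p of at most 0.05. Errors of log2 fold changes are SE worked back from the edgeR test, as the absolute change over the square root of its F statistic. They are approximate. CPM of single mice used TMM library sizes, and RPKM used exon length in GENCODE M21, from which 26 of the genes were absent. Shared transcript windows were 75 bases long. Intervals of counts cover counting error only.

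The 35 genes and all gene lists were chosen with earlier results of these data known. Values of every mouse were given for members called in any comparison other than fat-1 EtOH against fat-1 PF, for the 2 members of each role with the largest change called there, and for members called higher. From each list the 2 largest changes called in each direction were named, with every PPAR receptor. A result that this rule would name is not reported here. Alternatives were DESeq2 1.42.0, limma 3.58.1 with voom, other scalings and filters, fits of only the groups compared, a replicate block and leaving out each mouse. Fits without the mice that stood apart were added after seeing the data. The procedure was tested on simulated data. Tables were made with python 3.11.15 and pandas 2.3.3 and figures with matplotlib 3.10.9.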

Additional observations from a re-analysis of the deposited data

Results flagged for a closer look

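In groups of 4 or 5 mice, 6 of 105 sets of values held a mouse far from the others of its group, where about 5.2 would come from a rate of 1 in 20. The flag used the gap to the nearest mouse over the range of the group. It therefore misses 2 mice that stand apart together, such as fat-1 EtOH replicates 3 and 4 for Acaa1b (150 and 161 CPM). WT EtOH, with 3 mice, was not examined. The count of 6 is thus not a count of all mice that stood apart. In WT PF replicate 4 the CPM of Decr2 was 44.0 (55.2 to 55.5 in the other 3 mice), of Hsd17b4 125 (191 to 198) and of Crot 129 (195 to 209). Crot was also apart in fat-1 EtOH replicate 2, at 141 CPM (89.9 to 103 in the other 4). Acsl1 was 96.7 CPM in fat-1 EtOH replicate 5 (44.3 to 58.6), and Slc25a20 was 126 CPM in fat-1 PF replicate 3 (85.2 to 91.6).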

How the results depend on the processing

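The number of the 35 genes called between WT EtOH and WT PF, 1 with all mice and edgeR, was 11 with voom, 7 with only the groups compared, 0 with a filter of at least 1 count and 4 without fat-1 EtOH replicates 3 and 4 and fat-1 PF replicates 2 and 4. It was 0 without WT EtOH replicate 2 and fat-1 EtOH replicates 3 and 4, and 0 to 1 in the fits that left out each mouse. Over all genes the count of 11 became 257 with DESeq2, 2800 with voom, 1103 with only the groups compared and 2 with a filter of at least 1 count. It was 781 without fat-1 EtOH replicates 3 and 4 and fat-1 PF replicates 2 and 4. Without WT EtOH replicate 2 and fat-1 EtOH replicates 3 and 4 it was 26, and 0 to 66 when each mouse was left out. Between fat-1 EtOH and fat-1 PF the 14 calls became 9 with only the groups compared, 28 without fat-1 EtOH replicates 3 and 4, 28 when WT EtOH replicate 2 was also left out, 7 without fat-1 PF replicates 2 and 4, and 9 to 17 when each mouse was left out, with 9 without fat-1 PF replicate 2. Over all genes the count of 5170 became 3086, 4187, 4096, 1965 and 3928 to 5430 in these fits, in the same order. Between fat-1 PF and WT PF the 0 calls became 3 with DESeq2 and 0 to 2 when each mouse was left out, with 1 without fat-1 PF replicate 1 and 2 without fat-1 PF replicate 3. DESeq2 called 189 genes there in all and voom 31. Over all genes the 0 calls of edgeR there became 98 without fat-1 PF replicate 1 and 114 without fat-1 PF replicate 3. Acaa1b and Pdk4 turned from 1.16 and 0.79 to -3.36 and -2.54 without fat-1 EtOH replicates 3 and 4, and to -3.36 and -2.54 without WT EtOH replicate 2 as well. The cause was not tested. The comparison of fat-1 EtOH with WT EtOH and the interaction had 0 members called in each fit that was run. With the replicate number as a block, 0 members were called in WT mice and 10 in fat-1 mice (9 lower), against 18 and 4748 of all genes. Mice of the same number did not deviate together on average (mean correlation -0.0225 over 21 pairs, against 0.00703 over 74 other pairs), so no pairing by number was seen. The study used littermates and pair-feeding, but the labels give neither litters nor feeding pairs, and pairing by them was not tested. Of the values of single members under these alternatives, 943 in WT and 866 in fat-1 mice kept their side of the threshold and, where called, their direction, 19 and 51 passed newly, 16 and 58 no longer passed, and 4 in fat-1 mice, those of Acaa1b and Pdk4, turned direction and passed. Of all values (978 for WT, 979 for fat-1 mice), 37 and 41 had the other sign while the gene was called neither there nor with all mice and edgeR. In fat-1 mice voom called 19 members lower and 0 higher, without Cpt1a and Bbox1 (3649 of all genes, 1477 of them higher). Counts of 2 to 20 per library limit the precision of Acot12 and Bbox1 in EtOH-fed mice.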
